A study of Mus musculus with 8 samples.

Results

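A set of 10 genes that make, sense or break down prostaglandins was followed in uterine stromal cells of mice: 5 enzymes of synthesis (Ptgs1, Ptgs2, Ptges, Ptgis and Ptgds), 3 cell surface receptors for prostaglandin E2 (Ptger2, Ptger3 and Ptger4), the nuclear receptor Ppard and the degrading enzyme Hpgd. They were chosen by name, and all 10 were found among the 23420 gene symbols of the count tables. RNA of 8 libraries had been sequenced, 4 labelled Erbb3f/f and 4 labelled Erbb3d/d, each with the label day 3. By convention, f stands for a floxed allele and d for its deleted form after Cre recombination. The Cre line, the age of the mice, the event from which day 3 was counted and whether each library came from a separate animal are not given in the sources used here, so p-values measure the spread between these libraries, which may be partly technical.

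Prostaglandins are short-lived lipid signals made from arachidonic acid, which phospholipases release from membranes. The cyclooxygenases encoded by Ptgs1 and Ptgs2 turn it into an unstable intermediate, from which terminal synthases form prostaglandin E2, prostacyclin or prostaglandin D2, and Hpgd starts their inactivation inside cells. In the mouse uterus, stromal Ptgs2 around the attaching blastocyst is needed for normal implantation and decidualization, and Ptgs1 is known as the cyclooxygenase of the uterus before attachment.

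The 250 bases before and 30 bases after the RefSeq start site are shown for 4 of the genes, because the libraries lay close together for Ptgs1 and far apart for Ptgs2, and because Hpgd and Ptger3 were high and low in the same libraries. They were read from RefSeq windows on GRCm38.p6, which held 9 of the 10 genes, 1 window each. The stretches are chr2:36230176-36230455 for Ptgs1, chr1:150099781-150100060 for Ptgs2, chr8:56294302-56294581 for Hpgd and chr3:157566626-157566905 for Ptger3, all on the plus strand and printed 5′ to 3′. Capitals mark matches on either strand to 5 short motifs.
Ptgs1: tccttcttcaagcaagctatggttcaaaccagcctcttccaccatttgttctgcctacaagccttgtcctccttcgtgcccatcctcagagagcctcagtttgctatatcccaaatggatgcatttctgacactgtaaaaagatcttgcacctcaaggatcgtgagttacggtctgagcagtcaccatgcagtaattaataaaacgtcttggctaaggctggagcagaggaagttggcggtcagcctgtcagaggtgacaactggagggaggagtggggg
Ptgs2: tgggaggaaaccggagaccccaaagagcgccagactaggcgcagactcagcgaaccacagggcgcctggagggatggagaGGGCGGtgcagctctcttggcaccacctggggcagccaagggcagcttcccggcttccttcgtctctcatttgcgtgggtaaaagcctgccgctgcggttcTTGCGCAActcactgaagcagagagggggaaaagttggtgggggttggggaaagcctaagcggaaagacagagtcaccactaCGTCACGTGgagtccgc
Hpgd: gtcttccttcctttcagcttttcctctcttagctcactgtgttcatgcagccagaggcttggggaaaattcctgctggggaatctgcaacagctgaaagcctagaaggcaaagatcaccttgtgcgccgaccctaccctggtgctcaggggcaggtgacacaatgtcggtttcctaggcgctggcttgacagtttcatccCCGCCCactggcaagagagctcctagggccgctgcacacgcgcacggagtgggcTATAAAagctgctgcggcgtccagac
Ptger3: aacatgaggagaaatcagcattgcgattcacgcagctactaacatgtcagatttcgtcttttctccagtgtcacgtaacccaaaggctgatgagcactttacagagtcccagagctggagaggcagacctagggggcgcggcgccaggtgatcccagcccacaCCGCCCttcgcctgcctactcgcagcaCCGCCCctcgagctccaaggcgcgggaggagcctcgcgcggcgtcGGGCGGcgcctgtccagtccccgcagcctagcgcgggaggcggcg

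The motifs searched were the cAMP response element core CGTCA, the E-box CACGTG, the C/EBP palindrome TTGCGCAA, the TATA box TATAAA and the GC box GGGCGG. Among all 32851 windows of the same length, 19.9%, 6.79%, 0.180%, 13.1% and 34.7% held them, in that order. The Ptgs2 window held a C/EBP palindrome that began 69 bases before the start and a GC box 170 bases before it. Counted from the RefSeq start, its response element core began at base 14 and its E-box at base 17, and these share 2 letters. Hpgd held a TATA box at base 5 from the RefSeq start and 1 GC box, and Ptger3 held 3 GC boxes. The GENCODE start of Hpgd, 56294585, lies past the end of its window, so from that start the TATA box is upstream. All positions of motifs here depend on the RefSeq start. None of these letters occurred in the Ptgs1 window, which says nothing about the factors themselves.

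Reads in genes numbered 8578575 to 12854367 per library, and levels are given as CPM, the read count scaled to a common library size, where 1 CPM stood for 8.57 to 12.7 reads. Erbb3 itself had no lower mean in the libraries labelled Erbb3d/d (13.9 ± 4.56 CPM against 9.64 ± 2.24 CPM, SD, n = 4 each; edgeR adjusted p = 0.485), a count over the whole gene that does not separate a deleted exon from the rest. Each direction given here therefore follows the labels only. The stromal markers Pdgfra, Hoxa11 and Hand2 were abundant, at means of 916, 749 and 326 CPM in Erbb3f/f and 622, 498 and 260 CPM in Erbb3d/d. The 15 stromal markers summed to 14660 to 18510 CPM in Erbb3f/f and 12490 to 16850 CPM in Erbb3d/d, with 10 of 15 below 0 in log2 fold change. Markers of other cells were present too, and none of the defining markers was at 0 as a group mean. The 16 epithelial markers summed to 1077 to 1751 CPM in Erbb3f/f and 1659 to 2727 CPM in Erbb3d/d, and 14 of 16 had a positive log2 fold change. The 12 smooth muscle markers summed to 1344 to 2442 CPM in Erbb3f/f and 2085 to 4857 CPM in Erbb3d/d, and 11 of 12 had a positive log2 fold change. Of all tested genes, 48.0% had a positive one. Endothelial markers summed to 325 to 621 and 352 to 674 CPM and mesothelial markers to 64.4 to 254 and 43.0 to 195 CPM, Erbb3f/f first. In such bulk samples, fewer cells of a type and less RNA per cell cannot be told apart.

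The libraries labelled Erbb3d/d were compared with those labelled Erbb3f/f. None of the 9 genes with enough reads to test passed edgeR's quasi-likelihood test at an adjusted p under 0.05 (a call), and neither did any of all 14598 tested genes (0%). At an unadjusted p under 0.05 there were 2 of 9, Ptgis with the higher mean in Erbb3d/d and Ptger2 with the lower one, against 11.6% of all tested genes. DESeq2 called 258 of 15946 genes (1.62%) and also none of the 9. Blocking on the replicate number, edgeR called 52 genes (0.356%), again none of the 9. For none of the 9 did the 4 values of one genotype lie wholly above the 4 of the other, where 736 of all tested genes (5.04%) did so. Their median log2 fold change, Erbb3d/d over Erbb3f/f, was 0.05, beside -0.01 over all tested genes. Of the 9, 5 lay above 0 and 4 below, where 48.0% of all tested genes lay above 0.

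**Figure D1:**
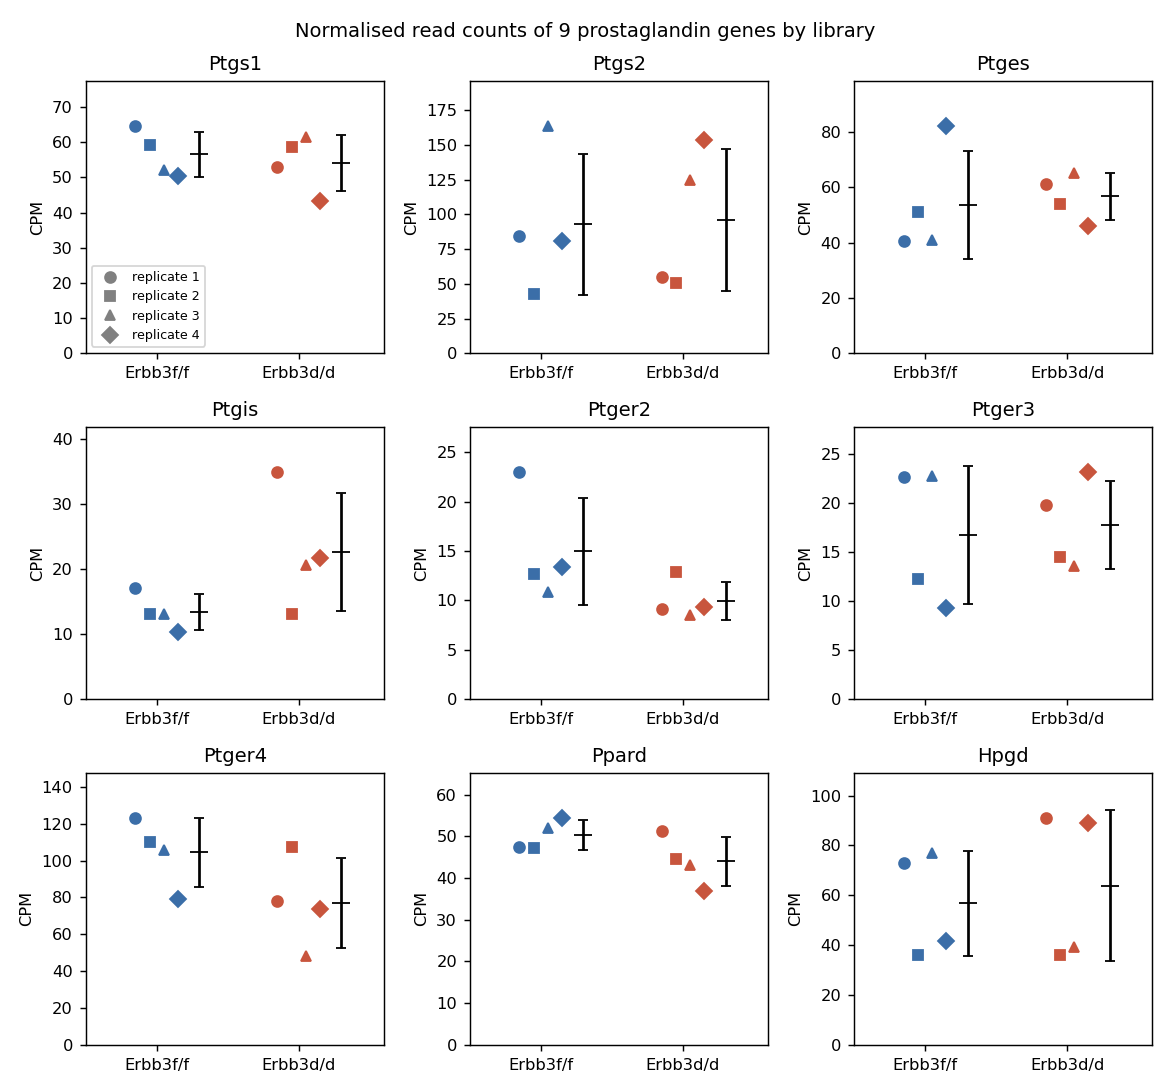
Normalised read counts (CPM, y axes from 0) of 9 genes in each library, blue for Erbb3f/f and red for Erbb3d/d, with a marker shape per replicate number and black bars for the mean and SD (n = 4). The genotypes overlap in every panel, Ptgs1 and Ppard lie within a narrow band, and Hpgd splits into 4 high and 4 low libraries, 2 of each genotype.

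Ptgs1 encodes the cyclooxygenase generally regarded as constitutive, and it lies on chromosome 2 at 36230426 to 36252272, plus strand (GRCm38, GENCODE vM21, as all positions here). In replicates 1 to 4 of Erbb3f/f its normalised read count was 64.5, 59.1, 52.2 and 50.3 CPM. In those of Erbb3d/d it was 52.9, 58.7, 61.5 and 43.3 CPM. The libraries lay close together, with a highest value 1.49 times the lowest, and the genotypes overlapped. The means were 56.5 ± 6.52 and 54.1 ± 8.05 CPM (SD, n = 4 each), and the fitted difference on the log2 scale was -0.06 (SE 0.13, adjusted p = 0.882 by edgeR). The 95% interval of the log2 fold change ran from -0.35 to 0.22. By the spread of its log2 CPM over the 8 libraries, Ptgs1 stood at the 45.2 percentile of the 11041 genes with a mean of at least 10 CPM.

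Ptgs2 encodes the inducible cyclooxygenase and lies on chromosome 1 at 150100031 to 150108227, plus strand. In replicates 1 to 4 of Erbb3f/f its normalised read count was 84.2, 42.4, 163 and 81.0 CPM. In those of Erbb3d/d it was 54.6, 50.5, 124 and 153 CPM. The 3 libraries that stood high were Erbb3f/f replicate 3 and Erbb3d/d replicates 3 and 4, and the lowest value of each genotype was its replicate 2. The highest library held 3.85 times the lowest, and the spread of Ptgs2 stood at the 97.7 percentile of the same genes. The means were nearly equal, 92.7 ± 50.7 CPM for Erbb3f/f against 95.7 ± 51.2 CPM (SD, n = 4 each). The fitted log2 fold change was 0.05 (SE 0.47, adjusted p = 0.979 by edgeR), with an unadjusted 95% interval from -1.01 to 1.10. Differences within this interval, in either direction, are thus not excluded by the fit.

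The level of Ptgs2 moved with several genes typical of neutrophils, a class of granulocytes. The 3 genes with the most similar pattern, by Pearson's correlation of log2 CPM over the 8 libraries among 14517 genes, were Ripk1 (r = 0.979), Niacr1 (r = 0.975) and Trem1 (r = 0.964). Trem1, an activating receptor of neutrophils and monocytes, had 8.77, 3.67, 64.9 and 12.9 CPM in replicates 1 to 4 of Erbb3f/f and 5.41, 6.77, 35.9 and 31.6 CPM in those of Erbb3d/d. The highest Trem1 values were thus in the same 3 libraries as the highest Ptgs2 values. A list of 10 neutrophil genes was then written after these values had been seen (S100a8, S100a9, Csf3r, Cxcr2, Trem1, Clec4e, Retnlg, Mmp8, Ly6g and Il1r2), and 9 of them are in the count tables. Their summed level was 114, 58.6, 395 and 130 CPM in replicates 1 to 4 of Erbb3f/f and 91.2, 65.9, 263 and 268 CPM in those of Erbb3d/d. Across the 8 libraries their mean log2 CPM had a Pearson correlation of 0.971 with that of Ptgs2 and of -0.469 with that of Ptgs1, as a description of libraries that share this RNA and its depth. Trem1 was picked for its likeness to Ptgs2 and is on this list, so the correlation is not independent of that choice. By mean CPM over the 8 libraries, Csf3r (55.9) and Retnlg (34.0) were highest on it, while S100a8 (4.18) and Mmp8 (0.661) were low. The 14 broader immune markers summed to 1432 to 3078 CPM in Erbb3f/f and 1915 to 2325 CPM in Erbb3d/d, with up to 2 of them at 0 in a library. Mesothelial markers also summed highest in Erbb3f/f replicate 3 (254 CPM) and Erbb3d/d replicate 3 (195 CPM), with 85.2 CPM in Erbb3d/d replicate 4. Whether the Ptgs2 reads came from neutrophils, other immune cells, mesothelium or stroma was not tested.

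**Figure D2:**
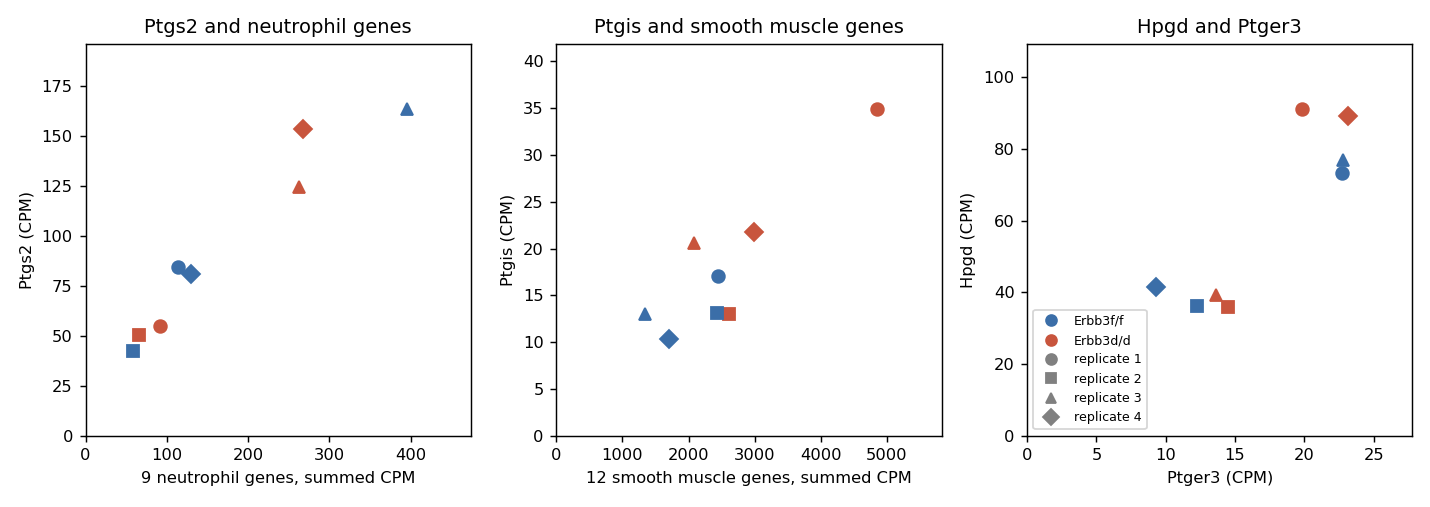
Each point is 1 library (blue Erbb3f/f, red Erbb3d/d, marker shape by replicate number), with CPM on all axes from 0: Ptgs2 against the sum of 9 neutrophil genes, Ptgis against the sum of 12 smooth muscle markers, and Hpgd against Ptger3. Ptgs2 is at least 124 CPM in the 3 libraries where the neutrophil sum is at least 263 CPM, Erbb3d/d replicate 1 is highest in both Ptgis and the smooth muscle sum, and Hpgd and Ptger3 separate the same 4 libraries from the other 4.

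The genes closest in pattern to Ptgs1 by the same measure were Mdp1 (r = 0.948), Pitpnm2 (r = 0.946) and Ola1 (r = 0.942). The correlation between Ptgs1 and Ptgs2 themselves was -0.422 over the 8 libraries.

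Ptges encodes the inducible microsomal synthase that forms prostaglandin E2 and lies on chromosome 2 at 30889471 to 30929863, minus strand. It had 40.5, 50.9, 41.0 and 82.0 CPM in replicates 1 to 4 of Erbb3f/f and 61.3, 54.1, 65.2 and 46.1 CPM in those of Erbb3d/d. The single highest value was Erbb3f/f replicate 4, and all 4 Erbb3d/d values lay inside the Erbb3f/f range. Its log2 fold change was 0.08 (SE 0.22, adjusted p = 0.910 by edgeR), with an interval from -0.41 to 0.58.

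Ptgis encodes prostacyclin synthase, an enzyme abundant in smooth muscle and vessel walls, and lies on chromosome 2 at 167191805 to 167240604, minus strand. It had 17.0, 13.1, 13.0 and 10.3 CPM in replicates 1 to 4 of Erbb3f/f. In those of Erbb3d/d it had 34.9, 13.1, 20.6 and 21.8 CPM. Of the 4 Erbb3d/d libraries, 3 lay above every Erbb3f/f library, and Erbb3d/d replicate 2 lay among them. The means were 13.4 ± 2.78 and 22.6 ± 9.07 CPM (SD, n = 4 each). On the log2 scale the fitted difference was 0.76 (SE 0.27, interval 0.15 to 1.36). The edgeR adjusted p was 0.344, which was not significant, and the unadjusted p from the same fit across all genes was 0.0195. Without Erbb3d/d replicate 1, the highest library, the log2 fold change was 0.47 (adjusted p = 0.507).

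Smooth muscle markers moved with Ptgis. Their sum was 2442, 2438, 1344 and 1710 CPM in replicates 1 to 4 of Erbb3f/f and 4857, 2613, 2085 and 2989 CPM in those of Erbb3d/d, highest in the library with the most Ptgis. Of the defining markers, Myh11 had means of 244 and 531 CPM and Cnn1 of 60.6 and 138 CPM, Erbb3f/f first. With the mean of the smooth muscle markers as a covariate, the log2 fold change of Ptgis was 0.17 (SE 0.32, adjusted p = 0.911 by edgeR). With the mean of the epithelial markers instead, it was 0.88 (SE 0.39). The part of either set of markers in the Ptgis difference was not tested. In the reference annotation Ptgis shares exonic sequence with 1110018N20Rik on the other strand, and these libraries do not record strand, so reads of both genes cannot be told apart there.

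Ptgds, the lipocalin-type synthase of prostaglandin D2, lies on chromosome 2 at 25466709 to 25470046, minus strand, and was close to undetected. It had 0, 1, 0 and 0 reads in replicates 1 to 4 of Erbb3f/f and 0, 0, 1 and 2 reads in those of Erbb3d/d. A count of 0 allows up to 3 reads, which is 0.236 to 0.350 CPM in the libraries with 0 reads. The libraries with 1 or 2 reads allow more. It was the only one of the 10 genes that did not pass the filter on low counts, so no fold change is given.

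The receptors Ptger2 and Ptger4 encode EP2 and EP4, which respond to prostaglandin E2 by raising cyclic AMP. Both had lower means in the libraries labelled Erbb3d/d, and neither passed the adjusted threshold. Ptger2, on chromosome 14 at 44988195 to 45003820, plus strand, had 23.0, 12.7, 10.8 and 13.3 CPM in replicates 1 to 4 of Erbb3f/f and 9.14, 12.8, 8.51 and 9.30 CPM in those of Erbb3d/d. Erbb3f/f replicate 1 stood above the rest, and Erbb3d/d replicate 2 was the only Erbb3d/d library inside the Erbb3f/f range. The log2 fold change was -0.59 (SE 0.25, interval -1.15 to -0.03), and the edgeR adjusted p was 0.411 (0.0402 unadjusted). Without Erbb3f/f replicate 1 it was -0.30 (adjusted p = 0.673). The log2 fold change was -0.67 with the mean of the epithelial markers as a covariate and -0.84 with that of the smooth muscle markers.

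Ptger4, on chromosome 15 at 5206661 to 5244187, minus strand, was the most abundant of these surface receptors. It had 123, 110, 106 and 78.9 CPM in replicates 1 to 4 of Erbb3f/f and 78.3, 107, 48.0 and 73.5 CPM in those of Erbb3d/d. In Erbb3d/d, 3 libraries lay below every Erbb3f/f library, Erbb3d/d replicate 1 only narrowly so, and Erbb3d/d replicate 2 lay inside the Erbb3f/f range. The means were 104 ± 18.6 and 76.8 ± 24.4 CPM (SD, n = 4 each), and the fitted difference on the log2 scale was -0.45 (SE 0.22, adjusted p = 0.479 by edgeR). With the mean of the epithelial markers as a covariate it was -0.12 (SE 0.27), and with that of the smooth muscle markers -0.64 (SE 0.33). Without Erbb3d/d replicate 3, the lowest library, it was -0.27. The epithelial sum was 1582, 1376, 1077 and 1751 CPM in replicates 1 to 4 of Erbb3f/f and 1659, 1702, 2683 and 2727 CPM in those of Erbb3d/d, and the part of this in the Ptger4 difference was not tested.

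Without Erbb3d/d replicate 2, Ptgis, Ptger2 and Ptger4 were the 3 genes of the 9 whose genotypes did not overlap, where 16.1% of all 14774 genes then tested did not overlap. Their adjusted p-values by edgeR were then 0.0636, 0.168 and 0.114, so none was called, while 259 genes of the genome (1.75%) were. Without Erbb3d/d replicate 1, Ppard alone did not overlap (8.12% of all genes then tested). In the reference annotation Ptger4 shares exonic sequence with Ttc33 and Gm15937 on the other strand, and Ptger2 with Gm17173 and Gm49364. Ttc33 had means of 35.9 ± 3.52 and 31.1 ± 3.75 CPM (SD, n = 4 each), and its log2 CPM had a Pearson correlation of 0.956 with that of Ptger4 over the 8 libraries. With no record of strand, reads in the shared stretch cannot be assigned to either gene. Ptgs1 likewise shares exonic sequence with Gm43621 on the other strand.

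Ptger3 encodes EP3, which mainly lowers cyclic AMP, and lies on chromosome 3 at 157566892 to 157645888, plus strand. It had 22.7, 12.3, 22.8 and 9.27 CPM in replicates 1 to 4 of Erbb3f/f and 19.9, 14.5, 13.6 and 23.2 CPM in those of Erbb3d/d. Replicates 1 and 3 of Erbb3f/f and replicates 1 and 4 of Erbb3d/d were high, and the other 4 were low. The means of the genotypes were 16.8 ± 7.02 and 17.8 ± 4.53 CPM (SD, n = 4 each), and the fitted difference on the log2 scale was 0.08 (SE 0.30, adjusted p = 0.940 by edgeR).

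Hpgd encodes the dehydrogenase that inactivates prostaglandins and lies on chromosome 8 at 56294585 to 56321043, plus strand. It had 73.2, 36.1, 76.8 and 41.5 CPM in replicates 1 to 4 of Erbb3f/f and 91.0, 35.9, 39.2 and 89.1 CPM in those of Erbb3d/d. The 4 high libraries were the same 4 as for Ptger3, and no value fell between 41.5 and 73.2 CPM. The genotypes contributed 2 libraries to each level, and their means of 56.9 ± 21.1 and 63.8 ± 30.3 CPM (SD, n = 4 each) differed by less than the spread. The fitted log2 fold change was 0.16 (SE 0.38, adjusted p = 0.898 by edgeR), with an interval from -0.69 to 1.02. Of these 4 libraries, Erbb3f/f replicate 3 and Erbb3d/d replicate 4 had the highest neutrophil sums of their genotypes, 395 and 268 CPM. Erbb3f/f replicate 1 and Erbb3d/d replicate 1 were low for those genes, at 114 and 91.2 CPM. Erbb3d/d replicate 3, at 263 CPM, was low for Hpgd. The shared pattern of Hpgd and Ptger3 was noticed in these values and was given no test.

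Ppard encodes a nuclear receptor of the peroxisome proliferator-activated family, which has been studied in the mouse uterus as a target of prostacyclin, and lies on chromosome 17 at 28232700 to 28301474, plus strand. It had 47.4, 47.1, 52.1 and 54.4 CPM in replicates 1 to 4 of Erbb3f/f and 51.3, 44.6, 43.2 and 36.9 CPM in those of Erbb3d/d. In Erbb3d/d, 3 libraries lay below every Erbb3f/f library, and Erbb3d/d replicate 1 lay inside the Erbb3f/f range. Its log2 fold change was -0.19 (SE 0.12, adjusted p = 0.546 by edgeR), with an interval from -0.45 to 0.07. It was -0.05 with the epithelial mean as a covariate, -0.195 with the smooth muscle mean and -0.11 without Erbb3d/d replicate 4. As with Ptgs1, the libraries lay close together, with a highest value 1.47 times the lowest.

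Levels of different genes were compared as CPM per kilobase of merged exons. Hpgd was highest, at 33.8 ± 12.5 in Erbb3f/f and 37.9 ± 18.0 in Erbb3d/d, and Ptgs2 was next, at 20.2 ± 11.1 and 20.9 ± 11.2 CPM per kilobase (SD, n = 4 each). In Erbb3f/f the order went on with Ptger4 (15.7 ± 2.79), Ptgs1 (14.5 ± 1.68), Ptges (13.6 ± 4.96), Ppard (6.69 ± 0.475), Ptgis (5.21 ± 1.08), Ptger3 (2.94 ± 1.23), Ptger2 (2.88 ± 1.05) and Ptgds (0.0159 ± 0.0318 CPM per kilobase). The ranges of mean ± SD overlapped between neighbours in this order except at 2 steps, from Ptges to Ppard and from Ptger2 to Ptgds. The order from Hpgd to Ptges and that from Ppard to Ptger2 was therefore not set beyond the spread at any single step. With the longest transcript as the length, 8 of the 10 genes held the same place in Erbb3f/f, and Ptger4 and Ptgs2 changed places.

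**Figure D3:**
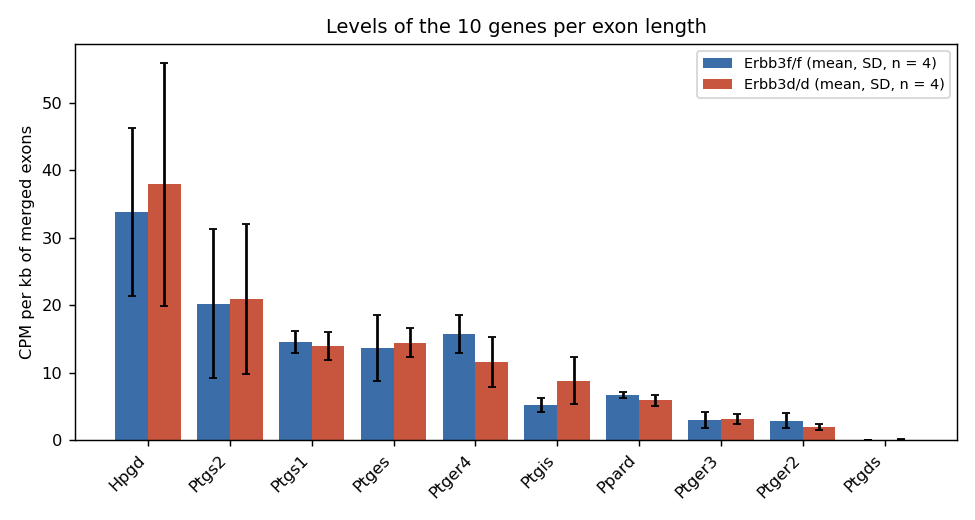
Mean level of each of the 10 genes in CPM per kilobase of merged exons (y axis from 0) with SD (n = 4), Erbb3f/f in blue and Erbb3d/d in red. Hpgd and Ptgs2 carry the widest error bars, Ptgs1 and Ptges lie near 14, and Ptgds is at the axis.

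The wider list held 32 other genes of the pathway, from phospholipases to transporters and receptors, of which 27 were tested. None passed edgeR at an adjusted p under 0.05 (0% of all tested genes), and 5 had an unadjusted p under 0.05, 3 with the higher mean in Erbb3d/d (6.64% of all tested genes) and 2 with the lower one (4.97%). Their median log2 fold change was -0.03. In 2 of the 27 the Erbb3d/d values lay wholly above the Erbb3f/f values (2.56% of all tested genes) and in 0 wholly below (2.48%).

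Slco2a1, the transporter that carries prostaglandins into cells for inactivation by Hpgd, had the smallest adjusted p of the list. It had 35.2, 32.5, 37.2 and 46.9 CPM in replicates 1 to 4 of Erbb3f/f and 49.3, 53.1, 90.8 and 66.2 CPM in those of Erbb3d/d. The genotypes did not overlap, though Erbb3f/f replicate 4 and Erbb3d/d replicate 1 were close. The log2 fold change was 0.78 (SE 0.20), and the adjusted p was 0.255 by edgeR and 0.0221 in DESeq2. Fitted beside the epithelial mean, its log2 fold change was 0.38, and beside the smooth muscle mean it was 1.14. Gpr44, the older symbol of the prostaglandin D2 receptor Ptgdr2, was the other gene without overlap, at 8.47 to 12.7 CPM in the Erbb3f/f libraries against 14.4 to 25.4 CPM. Its log2 fold change was 0.78 (SE 0.22, adjusted p = 0.284 by edgeR), 0.54 with the epithelial and 1.05 with the smooth muscle covariate. In the reference annotation Ptgdr2 shares exonic sequence with Ccdc86 on the other strand. Ptgfrn, a membrane protein known for its association with the prostaglandin F receptor, had 402 ± 20.9 and 495 ± 56.6 CPM (SD, n = 4 each; log2 fold change 0.30, edgeR adjusted p = 0.323), and a log2 fold change of 0.19 with the epithelial covariate.

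Abcc4, a transporter that exports prostaglandins, had 51.1 ± 7.43 CPM in the Erbb3f/f libraries against 39.1 ± 5.96 CPM (SD, n = 4 each; log2 fold change -0.39, edgeR adjusted p = 0.337). Zadh2, the older symbol of the prostaglandin reductase Ptgr3, had 172 ± 8.81 and 131 ± 33.1 CPM (SD, n = 4 each; log2 fold change -0.40, edgeR adjusted p = 0.377). Its log2 fold change was -0.10 with the epithelial mean as a covariate and -0.34 with the smooth muscle mean. The single genes Abcc4 and Slco2a1 thus had mean differences of opposite sign, neither of which passed the adjusted threshold by edgeR. Pla2g4a, the cytosolic phospholipase that supplies arachidonic acid, was level, at 43.5 ± 9.99 and 43.1 ± 8.46 CPM (SD, n = 4 each; log2 fold change -0.02, edgeR adjusted p = 0.983). Ptges3, a chaperone co-factor also described as the cytosolic prostaglandin E synthase, was the most abundant synthesis gene of the list per kilobase, though the annotated pseudogene copy Ptges3-ps makes its count uncertain, and had 213 ± 33.8 and 179 ± 9.67 CPM (SD, n = 4 each; log2 fold change -0.25, edgeR adjusted p = 0.438).

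**Figure D4:**
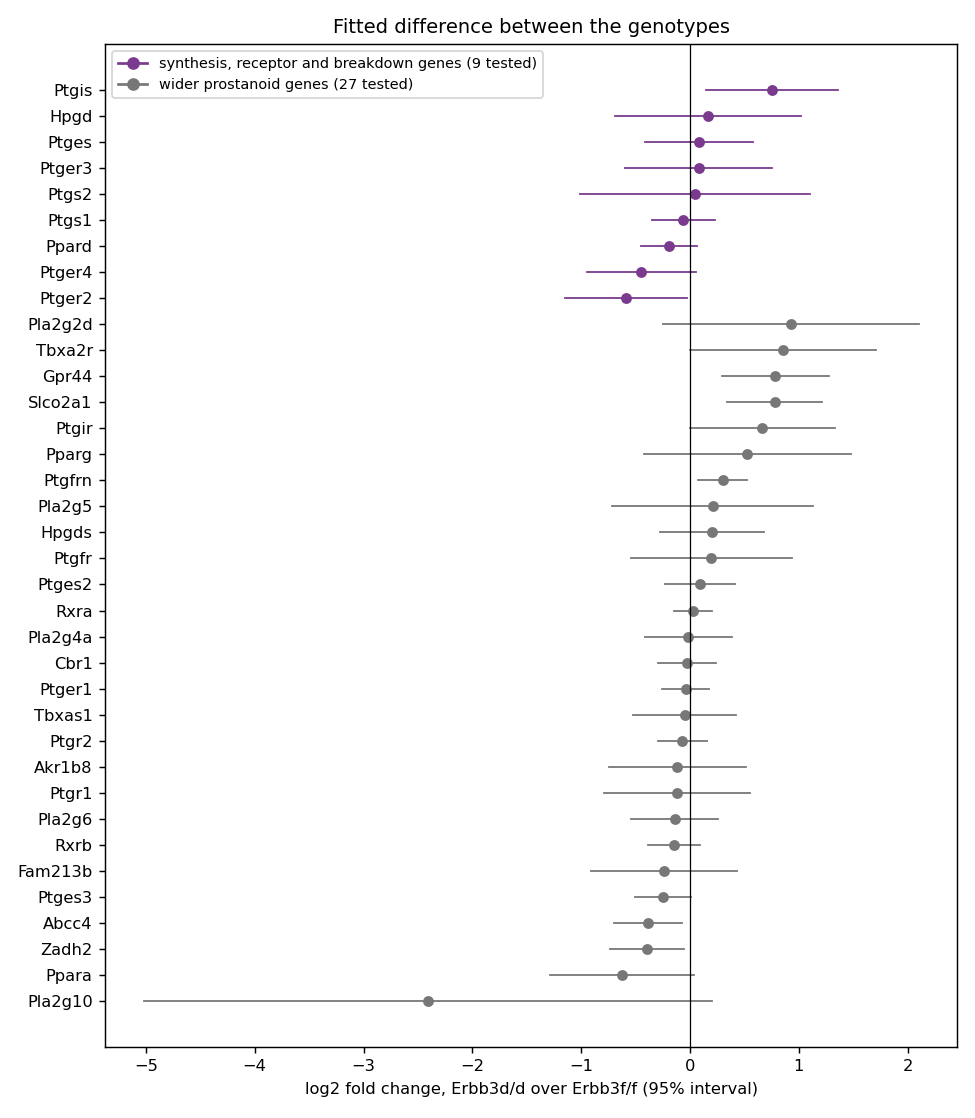
Fitted log2 fold change, Erbb3d/d over Erbb3f/f (x axis), with its 95% interval for 9 tested genes of synthesis, reception and breakdown (purple) and 27 tested genes of the wider list (grey), sorted within each set. The intervals of Ptgis and Ptger2 leave out 0 before adjustment, that of Ptgs1 is narrow around it, and that of Ptgs2 spans about 1 log2 unit each way.

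Genes known to respond to these receptors were read from the same fit. Of 18 genes that respond to cyclic AMP, 15 were tested and none passed edgeR at an adjusted p under 0.05 (0% of all tested genes). Their median log2 fold change was 0.43, beside -0.01 over all tested genes. Of the 15, 11 lay above 0 and 4 below, where 48.0% of all tested genes lay above 0. Many genes of this list are immediate early genes. At an unadjusted p under 0.05 by edgeR, Fosl2, Crem, Sik1 and Vegfa had the higher mean in Erbb3d/d (6.64% of all tested genes). Only Rgs2 had the lower one (4.97%). Rgs2, a regulator of G protein signalling, had 352, 236, 254 and 196 CPM in replicates 1 to 4 of Erbb3f/f and 175, 136, 125 and 149 CPM in those of Erbb3d/d. Every Erbb3d/d library lay below every Erbb3f/f library, as in 2.48% of all tested genes. The fitted log2 fold change was -0.83 (SE 0.17), and the adjusted p was 0.183 by edgeR and 0.00283 in DESeq2. The log2 fold change was -0.74 with the epithelial and -1.17 with the smooth muscle covariate. Vegfa, a growth factor for vessels, had 397 ± 28.2 and 461 ± 23.3 CPM (SD, n = 4 each). Its Erbb3d/d values lay wholly above the Erbb3f/f values, as in 2.56% of all tested genes. Its log2 fold change was 0.22 (adjusted p = 0.394 by edgeR), 0.13 under the epithelial covariate and 0.30 under the smooth muscle one.

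Of 12 genes known as targets of Ppard, 10 were tested and none was called by edgeR (0% of all tested genes). Their median log2 fold change was 0.08, with 6 above 0 and 4 below, where 48.0% of all tested genes lay above 0. At an unadjusted p under 0.05 by edgeR, Pdk4 and Cpt1a had the higher mean in Erbb3d/d (6.64% of all tested genes). Cpt1a, with overlap, had a log2 fold change of 0.36 (adjusted p = 0.380 by edgeR). In 1 of the 10, Pdk4, the Erbb3d/d values lay wholly above (2.56% of all tested genes). Pdk4, a kinase that restrains glucose oxidation, had 7.21, 5.97, 3.38 and 4.75 CPM in replicates 1 to 4 of Erbb3f/f and 19.0, 8.75, 10.6 and 20.4 CPM in those of Erbb3d/d. The genotypes did not overlap. Its log2 fold change was 1.47 (SE 0.33), and the adjusted p was 0.203 by edgeR, 0.00389 in DESeq2 and 0.0341 by edgeR without Erbb3d/d replicate 2. Adding the smooth muscle mean as a covariate gave a log2 fold change of 0.59, and adding the epithelial mean gave 1.15. Angptl4, another target, had 79.5 ± 38.2 and 83.9 ± 26.5 CPM (SD, n = 4 each; log2 fold change 0.07, edgeR adjusted p = 0.955), and is named after its value was seen.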

How the data were processed

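Polyadenylated RNA of 8 libraries was sequenced without a record of strand, per the labels' protocols. The authors deposited 1 table of raw read counts per library. HISAT2, SAMtools, HTSeq and StringTie and the builds mm10 and GRCm38 are named in the submitters' processing notes, without versions or options. The gene annotation is not given in the sources used here. Genes held 27.0% to 29.1% of the entries per library. Entries with no feature made up 48.3% to 50.8%, and ambiguous ones 0.1473% to 0.1655%. Lines that name no gene were left out. Whether the counting used strand is not given. The limit given for reads of 0 covers counting error only.

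Counts were tested with edgeR 4.0.16 in R 4.3.3. The filter filterByExpr left 14598 genes, scaling was by TMM, and glmQLFit (robust) and glmQLFTest were fitted with an intercept and the genotype. The Benjamini-Hochberg adjustment ran over all tested genes, with a threshold of 0.05. CPM uses the scaled library size, and log2 CPM a prior count of 2. DESeq2 1.42.0 was an alternative. Covariates were mean log2 CPM of marker lists. Gene positions and lengths came from GENCODE vM21. The scripts were tested on simulated counts.

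The genes and lists were chosen with earlier results of these data known. Named were all 10 genes. Wider genes were named with an unadjusted p under 0.05, without overlap at a mean of at least 1 CPM, or most abundant in their role. Response genes were named, up to 4 a list, with an unadjusted p under 0.05 and no overlap. Outside this rule, Fosl2, Crem, Sik1 and Cpt1a are named with their counts at an unadjusted p under 0.05, although their genotypes overlapped. Ptger1 is named outside it as well, beside Ptger4.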

Additional observations from a re-analysis of the deposited data

How the results depend on the processing

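The count of the 10 genes called was 0 under all 16 alternatives run. DESeq2 called 258 of 15946 genes (1.62%), 1 of 29 wider genes (Slco2a1) and 2 of 27 response genes (Pdk4 and Rgs2). With the replicate block, edgeR called 52 of 14598 genes (0.356%) and 1 of 25 response genes (Rgs2, adjusted p = 0.0457). The labels do not say that a number marks a shared animal or day. The correlation of deviations was 0.096 to 0.221 over the 4 pairs, and 3 of 4 Erbb3f/f libraries correlated best with their own number, so a pairing is not excluded. Leaving out one library gave 0 to 259 genes called, 0 wider genes and 0 to 2 of 25 response genes (Pdk4 and Has2). The highest counts came without Erbb3d/d replicate 2 (1.75% of 14774 genes). Of the 9 tested genes, 0 to 3 were then without overlap. The count was 3 without Erbb3d/d replicate 2 (16.1% of all genes then tested) and 1 without Erbb3d/d replicate 1 (8.12%). With the longest transcript as the length, 4 of the 10 genes held their place by mean level over all 8 libraries, and 8 in Erbb3f/f alone. Ptgis, Ptger2, Ptger4 and Ppard kept their sign under all 16. Others changed sign, all uncalled. Ptgs2 had a log2 fold change of -0.24 with the epithelial and -0.079 with the neutrophil covariate (added after the data were seen), Ptges -0.11 with the epithelial one, and Ptger3 -0.12 and Hpgd -0.35 with the smooth muscle one. Leaving out one library gave -0.27 to 0.47 for Ptgs2, -0.13 to 0.034 for Ptgs1, -0.026 to 0.36 for Ptges, -0.12 to 0.27 for Ptger3 and -0.057 to 0.36 for Hpgd. The cause was not tested. With the smooth muscle covariate Ptgs2 had 0.89 (SE 0.66). Depth limits Ptgds, at 0 to 2 reads.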

Other observations

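Some genes of the pathway outside the naming rule are given after their values were seen. Pla2g10, a secreted phospholipase, had 13.0, 10.8, 2.83 and 1.36 CPM in replicates 1 to 4 of Erbb3f/f and 0.295, 4.90, 0.394 and 0 CPM in those of Erbb3d/d, with overlap between the genotypes and an adjusted p of 0.464 by edgeR. The prostacyclin receptor Ptgir had 4.52 ± 1.56 CPM in the Erbb3f/f libraries against 7.13 ± 1.71 CPM, and the thromboxane receptor Tbxa2r 2.92 ± 1.48 and 5.25 ± 1.34 CPM (SD, n = 4 each). Their log2 fold changes were 0.66 and 0.85, with adjusted p-values of 0.433 and 0.432 by edgeR. Has2, a hyaluronan synthase that responds to cyclic AMP, had 46.5, 51.9, 43.5 and 39.2 CPM in replicates 1 to 4 of Erbb3f/f and 21.4, 48.3, 10.3 and 11.2 CPM in those of Erbb3d/d. Erbb3d/d replicate 2 was the only library of its genotype inside the Erbb3f/f range. The adjusted p of Has2 was 0.434 by edgeR and 0.0173 without that library.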
